A study of Mus musculus with 9 samples.

Results

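The 9 genes followed here belong to the Notch pathway and were read in whole mouse retinas at postnatal day 8. They were taken by symbol from the platform annotation: the receptor gene Notch3, the ligand genes Dll1, Dll3 and Jag2, the glycosyltransferase genes Lfng and Mfng, the DNA-binding factor gene Rbpj, and the target genes Hes1 and Hes5. All 9 were found among the 24257 genes of the Affymetrix whole-transcript array, each by 1 probe set. There were 9 arrays in 3 groups of 3: wild type (WT), a knockout of Rb (Rb KO), and a knockout of both Rb and p107 (labelled Rb/p107 DKO, here DKO). The mice of all groups were labelled C57Bl/6x129SvJ, and the series describes the arrays of a group as biological replicates. Rb and p107 are pocket proteins, which hold back E2F factors and entry into the cell cycle. The promoter or Cre line that removed Rb, the p107 allele, the share of retinal cells without Rb and the number of animals behind an array are not given in the sources used here. In whole retina fewer cells of a type and less RNA per cell cannot be told apart.

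Notch signalling passes between touching cells. A ligand of the Delta or Jagged kind on one cell leads to cleavage of the receptor on its neighbour, and the freed intracellular part joins RBPJ and a Mastermind coactivator at target genes. Among these targets are Hes1 and Hes5, repressors that hold back proneural genes. In the retina the pathway is known for keeping progenitors undifferentiated and for its part in the making of Muller glia. Neurons being born express Delta ligands.

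Values are log2 intensities, so that a difference of 1 is a doubling of signal. Intensities of different probe sets depend on their probes, and are compared here between groups only. A reading was taken as above background when it exceeded the level below which 95% of the negative controls of its own array lay (their 95th percentile). That percentile lay at 7.94 to 8.34 in WT, 8.32 to 8.5 in Rb KO and 8.29 to 8.43 in DKO, and the median of the negative controls at 5.52 to 5.83. The separation of positive from negative controls (area under the curve) was 0.932 to 0.954 in WT, 0.928 to 0.935 in Rb KO and 0.927 to 0.936 in DKO. Rb1 itself, at its brightest probe set, stood at -0.31 in Rb KO against WT (limma, adjusted p = 0.0793) and -0.36 in DKO against WT (adjusted p = 0.0423), and the p107 gene, Rbl1, was not analysed here. The knockout labels could not be judged from these probe sets. DKO replicate 2 read 5.47 for Xist, where the other 8 arrays read 11.44 to 12.15. Without it the counts of the 9 genes higher in DKO than WT stayed at 5, and of those lower in DKO than Rb KO went from 1 to 0. Hey2, Ctbp2 and the pathway counts below also change without it.

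RefSeq windows of 250 bases before the start of transcription (GRCm38.p6) were at hand for 7 of the 9 genes, 9 windows in all. Hes1 and Mfng had no entry. Both strands were searched for GTGGGAA, the core bound by RBPJ, for TTGGCGC, a form of the E2F site, and for a further E2F form, GCGGGAA, since the pathway and the knockouts bear on these factors. The motif GTGGGAA occurred in 5.42% of all 32851 windows of this length, TTGGCGC in 1.97% and GCGGGAA in 3.82%. Of the 7 genes, 4 held at least 1 of the 3, and their windows are shown 5′ to 3′ with the matches in capitals. Matches of different motifs did not overlap.
Hes5, chr4:154960673-154960922, plus strand: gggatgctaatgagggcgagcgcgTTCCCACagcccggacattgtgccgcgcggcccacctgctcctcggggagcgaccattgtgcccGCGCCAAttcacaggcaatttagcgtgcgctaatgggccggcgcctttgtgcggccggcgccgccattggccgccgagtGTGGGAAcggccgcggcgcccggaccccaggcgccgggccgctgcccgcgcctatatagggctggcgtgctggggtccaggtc
Lfng, chr5:140607091-140607340, plus strand: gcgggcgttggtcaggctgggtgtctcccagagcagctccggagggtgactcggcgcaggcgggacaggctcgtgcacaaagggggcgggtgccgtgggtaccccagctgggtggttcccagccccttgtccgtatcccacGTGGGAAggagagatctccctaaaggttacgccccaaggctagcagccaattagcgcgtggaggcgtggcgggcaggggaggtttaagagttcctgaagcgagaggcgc
Dll3, chr7:28301786-28302035, minus strand: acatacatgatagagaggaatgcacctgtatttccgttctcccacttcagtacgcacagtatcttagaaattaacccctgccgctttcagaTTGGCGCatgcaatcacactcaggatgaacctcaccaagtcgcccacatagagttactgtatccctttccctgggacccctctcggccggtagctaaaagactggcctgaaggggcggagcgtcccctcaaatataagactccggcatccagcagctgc
Rbpj, chr5:53590096-53590345, plus strand: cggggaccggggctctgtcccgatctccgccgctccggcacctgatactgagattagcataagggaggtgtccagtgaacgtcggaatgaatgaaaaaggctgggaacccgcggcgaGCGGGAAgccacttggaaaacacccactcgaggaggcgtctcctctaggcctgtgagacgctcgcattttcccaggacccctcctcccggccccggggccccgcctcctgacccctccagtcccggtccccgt
The Hes5 window held GTGGGAA at 83 to 77 bases before the start and its reverse complement at 226 to 220 bases, and 0.161% of all windows held 2 or more such matches. It also held the reverse complement of TTGGCGC at 162 to 156 bases. Lfng held GTGGGAA at 109 to 103 bases, Dll3 held TTGGCGC at 159 to 153 bases, and Rbpj held GCGGGAA at 133 to 127 bases before the start of the window shown, whereas its other window held none. The windows of Notch3, Jag2 and Dll1 (2 windows) held none of the 3. A match is a run of letters and no measured binding.

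Dll1, Dll3, Lfng, Rbpj and Hes5 were called higher than WT in both mutants at this age, Dll3 from readings not above background. In Rb KO, 6 of the 9 genes were higher than WT and 0 were lower: Dll1, Dll3, Lfng, Rbpj, Hes1 and Hes5. In DKO 5 of the 9 were higher than WT and 0 were lower, Hes1 being the gene no longer called. Against WT, 24.4% of all genes were called in Rb KO (10.2% higher, 14.3% lower) and 29.3% in DKO (12.2% higher, 17.1% lower). The median log2 fold change over the 9 genes was 0.46 in Rb KO and 0.58 in DKO, against -0.05 and -0.06 over all genes tested. Both comparisons with WT share the 3 WT arrays. The 9 genes were chosen with earlier results of these data known, so their difference from all genes carries no test. Between the mutants 1 of the 9 genes differed, Hes1, which was lower in DKO (2.54% of all genes were called, 1.21% as lower). A moderated F test over the 3 groups called the same 6 genes as the comparison of Rb KO with WT (28.7% of all genes were called).

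**Figure D1:**
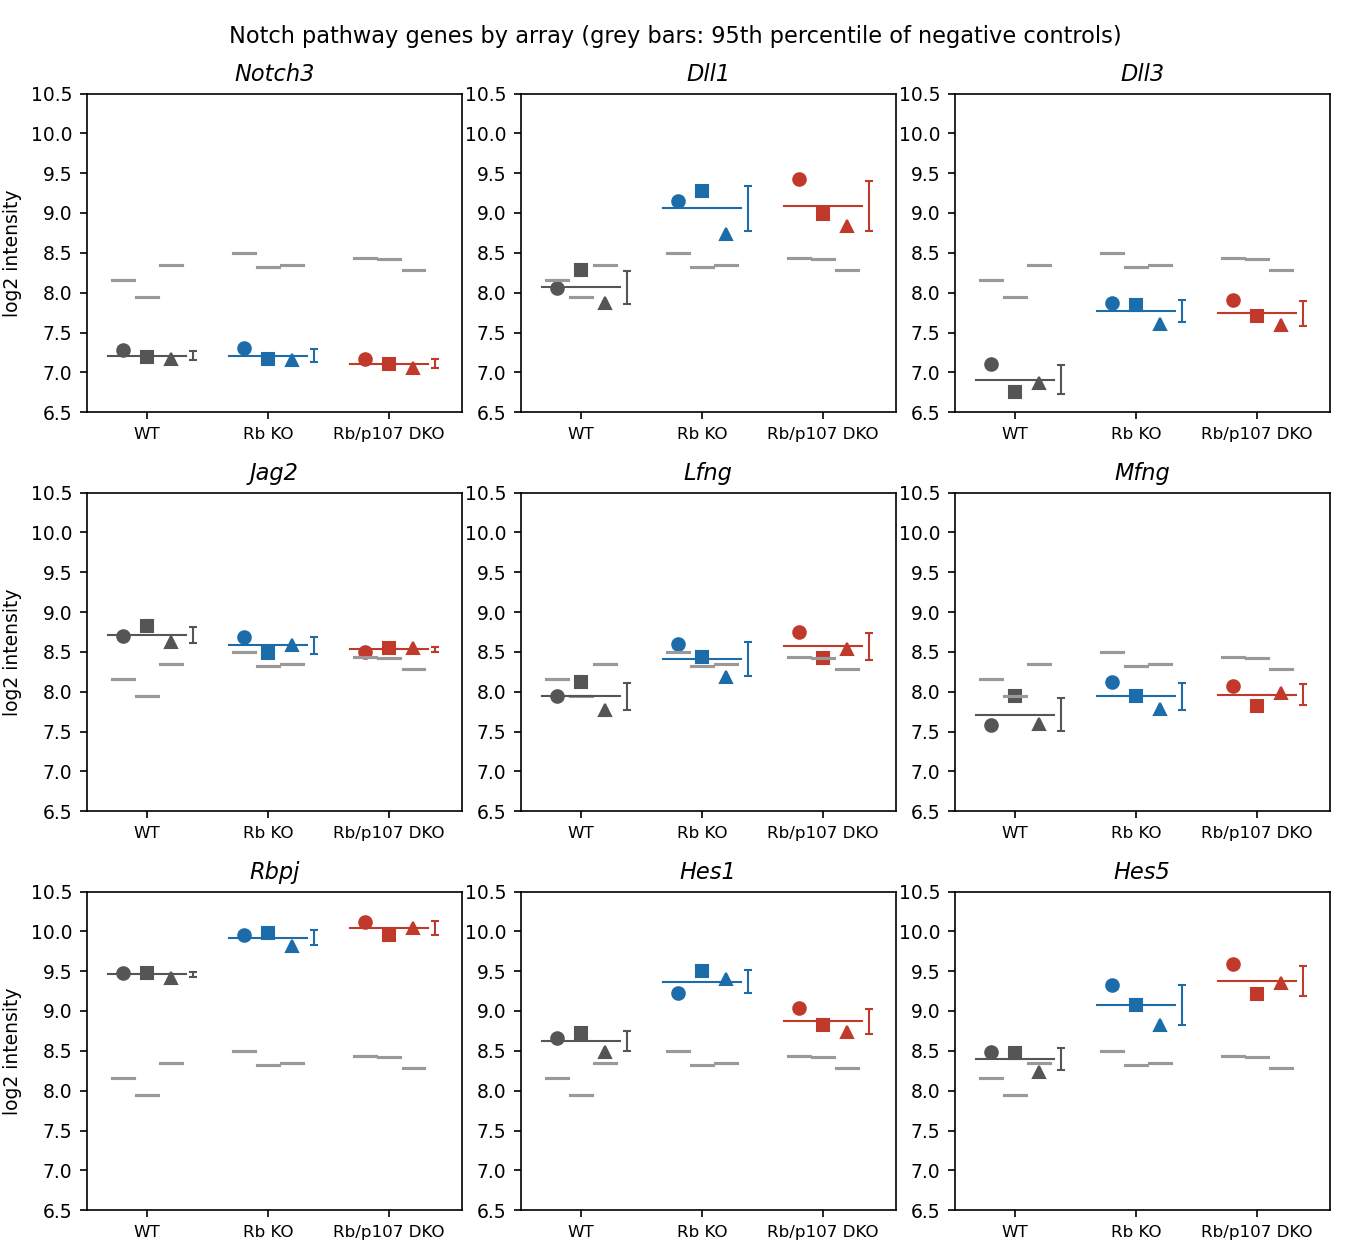
Log2 intensity of the 9 genes on each of the 9 arrays, by group (circle, square and triangle for replicates 1, 2 and 3). Long lines are group means, side bars are 1 SD either way and short grey bars the 95th percentile of the negative controls of the array. Dll1, Dll3, Lfng, Rbpj, Hes1 and Hes5 sit above all WT arrays in both mutants, Dll3 from readings not above background. Hes1 is highest in Rb KO. Of all genes, 14.3% in Rb KO and 17.4% in DKO sit above all WT arrays.

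The receptor Notch3, which in the retina is best known from pericytes and smooth muscle of vessels, was not above background on any array. Its readings were 7.28, 7.19 and 7.17 (WT), 7.31, 7.17 and 7.16 (Rb KO), and 7.17, 7.1 and 7.05 (DKO). The groups overlapped, and neither mutant passed against WT (limma, adjusted p = 0.997 and 0.319). Notch4, a receptor of endothelium, was also not above background on any array and did not pass (adjusted p = 0.822 and 0.334). Notch1 and Notch2 were not analysed here. Of the 10 measured markers of pericytes and smooth muscle, Notch3 among them, 5 fell in Rb KO and 6 in DKO (14.3% and 17.1% of all genes fell). The brightest (Vtn, Pdgfrb and Abcc9) fell in both, and none rose. The summed linear intensity of the other 9 was 2240 to 2850 in WT, 1152 to 1277 in Rb KO and 1003 to 1361 in DKO. Of those 9, 6 (Cspg4, Kcnj8, Acta2, Anpep, Myh11 and Tagln) were not above background on any array. The part of these cells in the Notch3 readings was not tested.

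Among the ligands, the 2 Delta-like genes were called higher in both mutants and the Jagged gene did not pass. Dll1, the Delta ligand of newborn neurons and a main activator of Notch in neighbouring progenitors, read 8.06, 8.28 and 7.87 in WT. Rb KO arrays read 9.15, 9.28 and 8.74, while DKO arrays read 9.43, 8.99 and 8.84. Every mutant array lay above every WT array, and the mutants overlapped. Of all genes, 14.3% in Rb KO and 17.4% in DKO lay above every WT array. These shares also stand beside the genes below. Dll1 was above background on 1 of 3 WT arrays and on all 6 mutant arrays. It rose by 0.99 in Rb KO (1.98-fold, SE 0.177, 3 arrays per group, 95% interval 0.6 to 1.38, limma adjusted p = 0.00227) and by 1.02 in DKO (2.02-fold, SE 0.177, adjusted p = 0.00147). Between the mutants its difference was 0.03, with an interval from -0.36 to 0.42.

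Dll3, a divergent Delta protein that does not activate receptors in neighbouring cells and acts inside the cell that makes it, read 7.11, 6.75 and 6.86 in WT. Rb KO arrays read 7.87, 7.84 and 7.61, while DKO arrays read 7.91, 7.71 and 7.6. All mutant arrays lay above all WT arrays, but no array was above background, so that no size of a change was measured. The fit called Dll3 higher in Rb KO (0.86, SE 0.116, adjusted p = 3.92e-04) and in DKO (0.83, SE 0.116, adjusted p = 3.74e-04) as differences between such readings. Of the genes called in Rb KO against WT, 2117 of 5923 were likewise not above background on any array of either group.

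Jag2, a ligand of the Jagged kind, was above background on all 9 arrays. It read 8.7, 8.82 and 8.62 (WT), 8.68, 8.48 and 8.59 (Rb KO), and 8.5, 8.55 and 8.55 (DKO). The DKO arrays all lay below the WT arrays and the Rb KO arrays overlapped with them. Neither difference passed, at -0.13 in Rb KO (SE 0.0804, interval -0.31 to 0.05, adjusted p = 0.279) and -0.18 in DKO (SE 0.0804, adjusted p = 0.12). The arrays of DKO and WT did not overlap in 43.9% of all genes.

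Lfng and Mfng encode Fringe enzymes, which extend O-fucose sugars on the receptor and so shift its response to Delta against Jagged ligands. Lfng read 7.94, 8.12 and 7.77 (WT), 8.6, 8.44 and 8.18 (Rb KO), and 8.75, 8.42 and 8.53 (DKO). The lowest mutant array stood just above its highest WT array. It was above background on 1 of 3 WT arrays and on 2 of 3 arrays of each mutant. Lfng rose by 0.62 in DKO (1.54-fold, SE 0.13, adjusted p = 0.00451) and by 0.46 in Rb KO (1.38-fold, SE 0.13, adjusted p = 0.0254). The Rb KO difference did not pass when an array was left out among WT 1 or 3 and Rb KO 1 or 2 (adjusted p = 0.0662 to 0.0999).

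Mfng read 7.58, 7.95 and 7.6 (WT), 8.12, 7.94 and 7.78 (Rb KO), and 8.07, 7.82 and 7.98 (DKO). The groups overlapped through WT replicate 2, the array with the lowest background percentile (7.94) and the only array on which Mfng was above background. The differences were 0.24 in Rb KO (SE 0.122, interval -0.03 to 0.5, adjusted p = 0.198) and 0.25 in DKO (SE 0.122, interval -0.02 to 0.52, adjusted p = 0.161). Without WT replicate 2 they were 0.35 and 0.37 and passed (limma adjusted p = 0.0365 and 0.0284). No reading of Mfng on the arrays left was above background, so no size of a change was measured. WT replicate 2 was the highest of the WT arrays in 6 of the 9 genes, and in 63.6% of the 9239 genes above background on any array.

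Rbpj encodes the DNA-binding partner of the cleaved receptor, which represses targets in its absence. It varied least among replicates of the genes that rose. It read 9.48, 9.48 and 9.42 (WT), 9.96, 9.98 and 9.81 (Rb KO), and 10.12, 9.95 and 10.04 (DKO). All 6 mutant arrays lay above the WT arrays, and the mutants overlapped. Rbpj rose by 0.46 in Rb KO (1.37-fold, SE 0.0777, adjusted p = 0.00166) and by 0.58 in DKO (1.49-fold, SE 0.0777, adjusted p = 2.89e-04). Rbpsuh-rs3, a related sequence of Rbpj, followed it closely over the 9 arrays (Pearson r = 0.998) and stood at 0.66 in Rb KO and 0.81 in DKO against WT. Whether probes of the 2 probe sets bind the same RNA was not tested, so the Rbpj values may hold signal of both.

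Hes1 and Hes5 encode the repressors that Notch activates in retinal progenitors, and they parted in DKO. Hes5 read 8.49, 8.47 and 8.24 (WT), 9.33, 9.08 and 8.82 (Rb KO), and 9.59, 9.21 and 9.35 (DKO). All mutant arrays lay above all WT arrays, and DKO overlapped with Rb KO. Hes5 was above background on 2 of 3 WT arrays and on every mutant array. Hes5 rose by 0.68 in Rb KO (1.6-fold, SE 0.136, interval 0.38 to 0.98, adjusted p = 0.00438) and by 0.98 in DKO (1.98-fold, SE 0.136, interval 0.68 to 1.28, adjusted p = 3.44e-04). The difference between the mutants, 0.31 (interval 0.01 to 0.6), did not pass over all genes (adjusted p = 0.354).

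Hes1 was highest in Rb KO. It read 8.66, 8.72 and 8.48 (WT), 9.22, 9.5 and 9.4 (Rb KO), and 9.04, 8.82 and 8.74 (DKO), above background on all 9 arrays. The 3 groups did not overlap, with DKO just above WT and Rb KO above both. Of all genes, 10.9% lay below every Rb KO array in DKO. Hes1 rose by 0.75 in Rb KO against WT (1.68-fold, SE 0.106, interval 0.52 to 0.99, adjusted p = 5.17e-04). In DKO against WT it stood at 0.25 (SE 0.106, interval 0.02 to 0.49) and did not pass (adjusted p = 0.103), although non-overlapping higher readings were found in 17.4% of all genes. It fell by 0.50 on the log2 scale in DKO against Rb KO (1.42-fold, SE 0.106, interval -0.73 to -0.27, adjusted p = 0.034). That call lies near the threshold: it was lost when replicate 2 or 3 of Rb KO or of DKO was left out (-0.49 to -0.44, adjusted p = 0.101 to 0.153), with arrays centred on the median (adjusted p = 0.0544) and with a replicate block (adjusted p = 0.053). The direction held in each. For the other genes the differences between the mutants did not pass, and their 95% intervals ran from -0.29 to 0.22 for Dll3, -0.23 to 0.13 for Jag2, -0.13 to 0.45 for Lfng, -0.26 to 0.28 for Mfng and -0.05 to 0.29 for Rbpj. Of all 24257 genes, 85 (0.35%) rose in Rb KO against WT and fell in DKO against Rb KO.

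**Figure D2:**
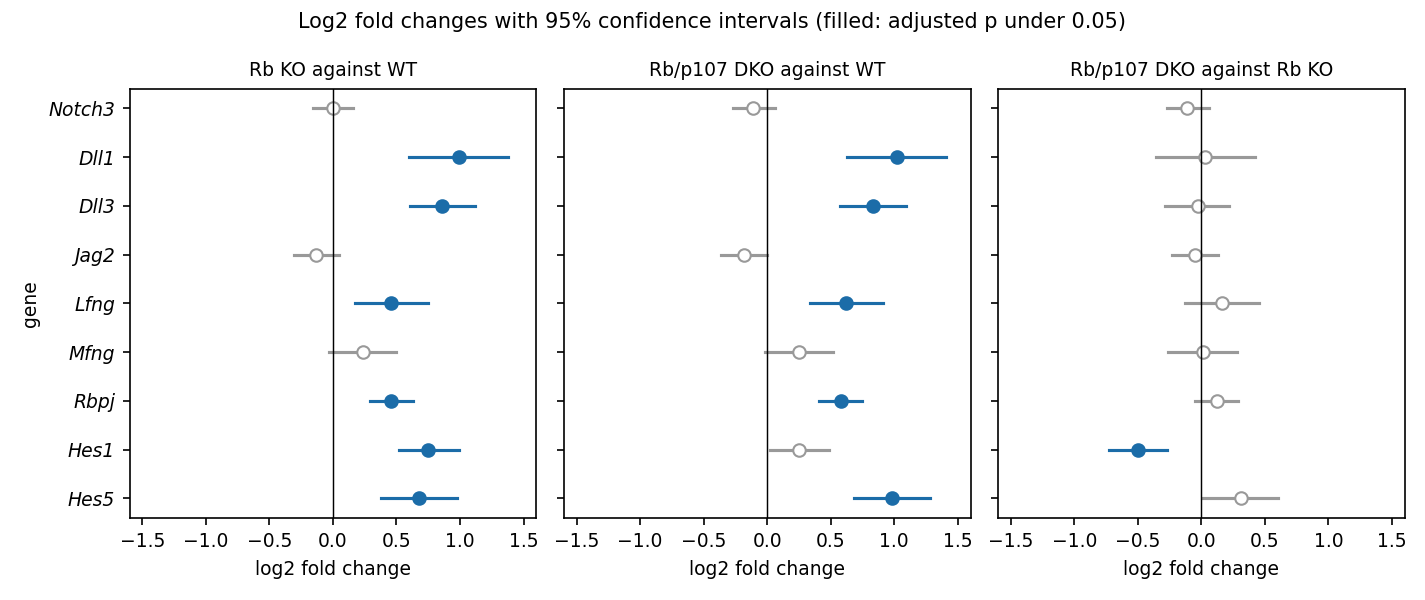
Log2 fold changes of the 9 genes in the 3 comparisons, with 95% confidence intervals from limma. Filled points had an adjusted p under 0.05: 6 genes for Rb KO, 5 for DKO (each with WT) and, between the mutants, Hes1 at -0.5.

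Because Hes1 and Hes5 were read on the same arrays, their changes were also set against each other within each array, a contrast chosen after their values were seen. Hes5 minus Hes1 was -0.18, -0.25 and -0.24 (WT), 0.11, -0.41 and -0.58 (Rb KO), and 0.54, 0.39 and 0.6 (DKO). The DKO arrays lay above all others. This difference was 0.81 larger in DKO than in Rb KO and 0.73 larger than in WT (two-sided exact permutation p = 0.1 in each, the smallest that 3 against 3 arrays allow). Hey2 minus Hes1 was also highest in DKO: -0.03, -0.06 and 0.08 (WT), -0.01, -0.17 and -0.37 (Rb KO), and 0.59, 0.79 and 0.74 (DKO) (0.89 larger in DKO than in Rb KO, exact permutation p = 0.1). Both differences subtract the same Hes1 readings, and Hey2 was named for its large change in these data. The Hey2 contrast is therefore no independent support.

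**Figure D3:**
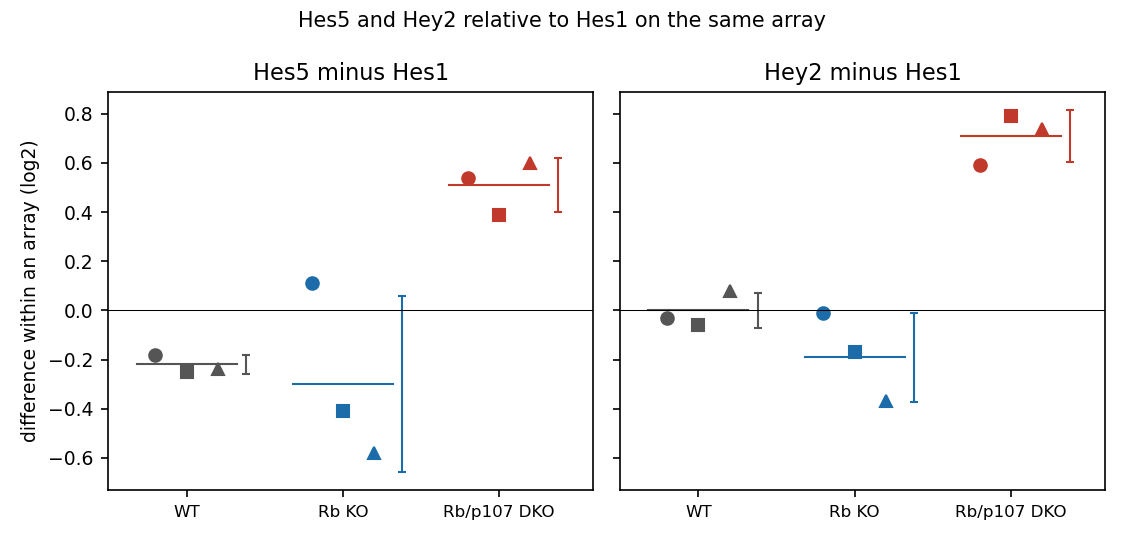
Difference of 2 log2 intensities on the same array, Hes5 minus Hes1 and Hey2 minus Hes1, for the 3 arrays of each group. Lines are group means and bars 1 SD either way; the DKO arrays lie at 0.39 or higher in both, and the highest array of the other groups at 0.11.

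The rest of the pathway was covered by a list of 83 genes, of which 61 were measured, the 9 described included. The other 22, among them Notch1, Notch2, Dll4, Jag1, Hey1 and Nrarp, were not analysed here. Of the 52 measured genes beyond the 9, in Rb KO 14 rose and 2 fell, and 36 did not pass; their median change was 0.12 on the log2 scale (among all genes tested 10.2% rose and 14.3% fell, median -0.05). In DKO 15 rose, 7 fell and 30 did not pass, with a median of 0.07 (over all genes 12.2% rose and 17.1% fell, median -0.06). Between the mutants 2 were higher in DKO (1.34% of all genes were) and 1 lower. The count of 2 went to 0 when WT 1, Rb KO 1 or 3, or DKO 1 or 3 was left out, to 1 without WT 3 or DKO 2, and to 4 without WT 2. Of these calls 4, 5 and 1 concerned genes not above background on any array of the groups compared. With the 9 genes included, 20 of 61 rose in Rb KO, and when Rb KO replicate 1 was left out 13 did. In DKO 20 of 61 rose and 7 fell, and without DKO replicate 2 18 rose and 6 fell.

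Further Hes and Hey repressors rose with Hes5. Hey2, a repressor of the same class that RBPJ also drives, read 8.62 ± 0.0538 (SD, n = 3) in WT, 9.19 ± 0.148 in Rb KO and 9.58 ± 0.0838 in DKO. The 3 groups did not overlap. Of all genes, 11.3% lay above every Rb KO array in DKO. Hey2 rose by 0.57 in Rb KO (SE 0.088, adjusted p = 9.69e-04) and by 0.96 in DKO (SE 0.088, adjusted p = 2.13e-05). It was 0.39 higher in DKO than in Rb KO (SE 0.088, adjusted p = 0.0441), but lost that call when WT 1 or 3, Rb KO 1 or 3, or any of the DKO arrays was left out (limma adjusted p = 0.0594 to 0.183) and with median centring, only the 2 groups fitted or the control separation as a covariate (0.0533 to 0.0552). Of the 8 measured genes of this class, 5 rose in Rb KO and 4 in DKO, none fell, and 5 of the 8 were not above background on any array. Over all genes 10.2% rose and 14.3% fell in Rb KO (12.2% and 17.1% in DKO). These shares also stand beside the counts by role below. Heyl and Hes2 rose in both mutants, from readings not above background.

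At the RBPJ complex, coactivators and corepressors both moved. Of 8 measured genes of the complex and its coactivators, 3 rose and 0 fell in Rb KO, Rbpj included, and 3 rose and 1 fell in DKO. Crebbp, an acetyltransferase recruited to many activators, rose in Rb KO (0.59, SE 0.115, adjusted p = 0.0038) and in DKO (0.41, SE 0.115, limma adjusted p = 0.0204). Kat2b, another acetyltransferase, fell in DKO (-0.43, SE 0.0694, adjusted p = 9.11e-04) and did not pass in Rb KO (-0.2, limma adjusted p = 0.0597). Of 12 corepressor genes, 5 rose and 1 fell in Rb KO and 6 rose and 2 fell in DKO.

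Genes of the corepressors split by family member. The Groucho-related genes Tle3 and Tle4, whose proteins serve Hes repressors, rose. Tle3 stood at 0.66 in Rb KO (SE 0.126, adjusted p = 0.00328) and 0.54 in DKO (SE 0.126, adjusted p = 0.00832). Tle4 stood at 0.32 in Rb KO (SE 0.0876, limma adjusted p = 0.0227) and 0.67 in DKO (SE 0.0876, adjusted p = 2.32e-04). The Tle3 call in DKO was lost when the fit also held how well each array separated its controls (adjusted p = 0.0642). Tle2 was called lower in DKO (-0.45, SE 0.0917, adjusted p = 0.00409), from 1 of 3 WT arrays above background to 0, so no size of its fall was measured. Spen, a large scaffold that joins RBPJ to corepressors, rose in Rb KO (0.51, SE 0.0952, adjusted p = 0.00305) and in DKO (0.42, SE 0.0952, limma adjusted p = 0.00729). Ctbp2, whose alternative product RIBEYE builds the synaptic ribbons of photoreceptors, was called lower in both mutants. It stood at -0.22 in Rb KO (SE 0.0677, adjusted p = 0.0343) and -0.29 in DKO (SE 0.0677, limma adjusted p = 0.00765). The call in Rb KO was lost when WT 1 or 2, Rb KO 1 or 2, or any of the DKO arrays was left out (limma adjusted p = 0.055 to 0.12). It was also lost with quantile normalization (0.0579), only the 2 groups fitted (0.102), a replicate block (0.0627) and the control separation as a covariate (0.144).

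Of 8 measured ligand genes 2 rose (Dll1 and Dll3) and 1 fell in Rb KO, and 2 rose and 2 fell in DKO. The falls were contactins, adhesion proteins of neurons that have been described as non-classical Notch ligands. Cntn6 was above background on all 3 WT arrays and on none of the mutants, and was at least 1.02-fold lower in each, with fitted differences of -0.65 in Rb KO (SE 0.159, adjusted p = 0.0122) and -0.98 in DKO (SE 0.159, adjusted p = 9.35e-04). The call in Rb KO was lost without Rb KO replicate 1 (limma adjusted p = 0.0525) and with the control separation as a covariate (0.08). Here "at least" sets the WT mean against the mean, over the mutant arrays, of the higher of the background percentile and the reading. Cntn1 fell in DKO (-0.58, SE 0.1, adjusted p = 0.00137).

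Genes that act on the receptor mostly did not pass. Among all genes tested, 10.2% rose and 14.3% fell in Rb KO, and 12.2% rose and 17.1% fell in DKO. Of 6 measured processing genes 1 rose in Rb KO and 1 fell in DKO, in both cases Furin, the protease that cuts the receptor on its way to the surface. Furin read 8.2 ± 0.0955 in WT, 8.45 ± 0.0927 in Rb KO and 7.92 ± 0.0331 in DKO, where no array was above background. Its fit gave -0.53 in DKO against Rb KO (SE 0.0782, adjusted p = 0.00561), and set against the background percentile it was at least 1.05-fold lower. In WT it was above background on 2 of 3 arrays, and no size of its fall in DKO against WT was measured. Of 8 trafficking and inhibitor genes 2 rose in Rb KO and 3 in DKO. Dtx1, an E3 ligase of the Deltex family, rose in both (0.34 in Rb KO, SE 0.0968, limma adjusted p = 0.0258, and 0.49 in DKO, SE 0.0968, adjusted p = 0.00338). Of 4 ligand ubiquitin ligase genes 1 rose in each mutant, Neurl1b, from readings not above background. Neurl1a was called lower in DKO. It was above background on 1 of 3 WT arrays and on no DKO array, so no size of its fall was measured. Of 5 glycosyltransferase genes Lfng was the only one called.

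**Figure D4:**
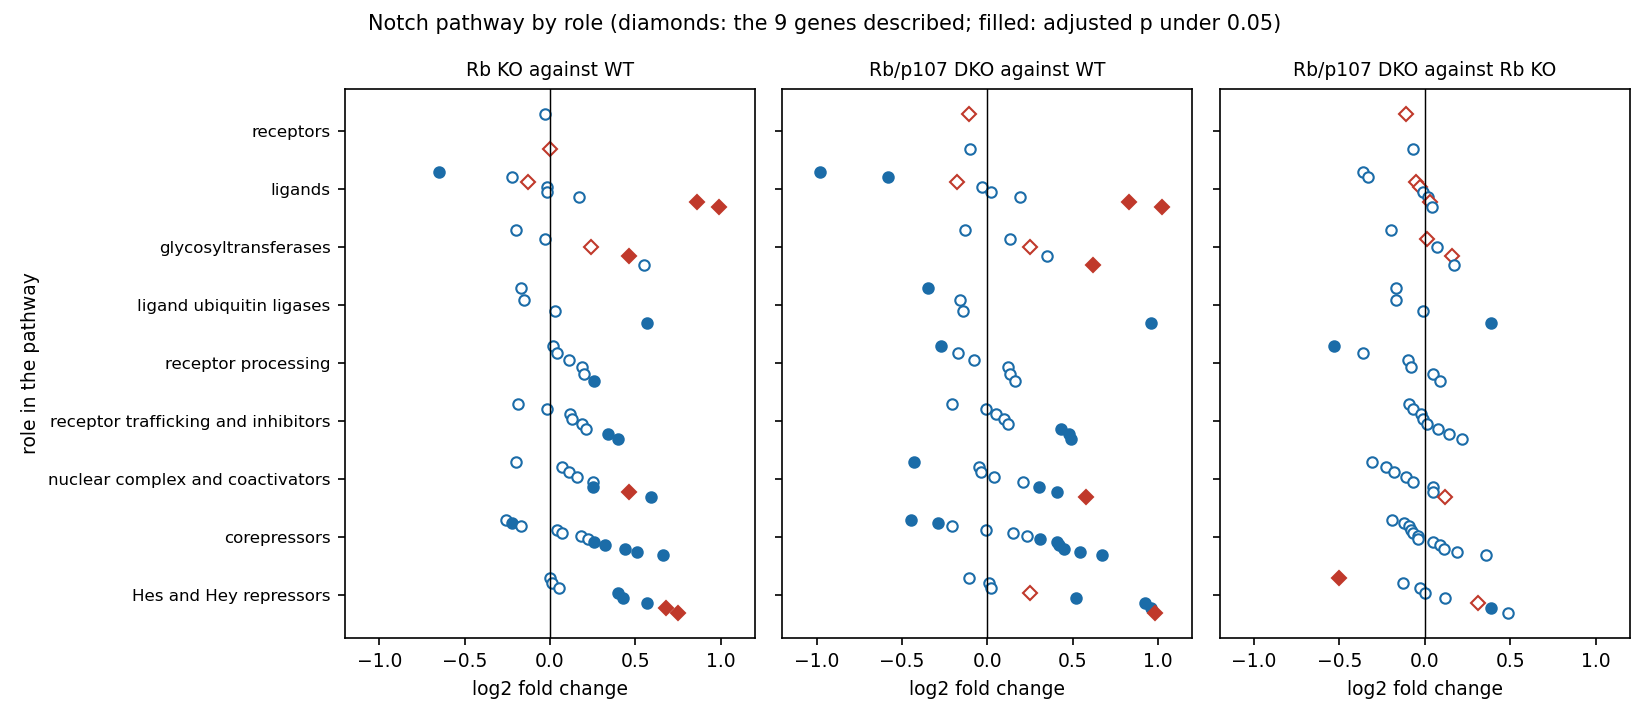
Log2 fold changes of the 61 measured pathway genes, each a point, by role (rows) in the 3 comparisons (panels). Diamonds are the 9 genes described and circles the other 52; filled points had an adjusted p under 0.05, 22 of 61 for Rb KO, 27 for DKO (each with WT) and 4 between the mutants.

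A list of proneural genes and related factors was measured in 5 of 10 cases, of which 3 rose in Rb KO and 4 in DKO (limma). Of all genes tested, 10.2% and 12.2% rose. In each mutant 1 of these calls was on a gene not above background on any array of the groups compared. Olig2 had the largest rise of the list, with 7.57 ± 0.0398 in WT (no array above background), 9.72 ± 0.392 in Rb KO and 10.74 ± 0.162 in DKO. It was higher in DKO than in Rb KO (1.03, adjusted p = 0.00814).

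Markers of the cells in which the pathway is known to act moved in opposite directions. For the marker counts here and below, 10.2% of all genes rose and 14.3% fell in Rb KO (12.2% and 17.1% in DKO). Of 7 measured progenitor markers 5 rose in Rb KO and 6 in DKO, and none fell against WT. Their summed linear intensity was 3989 to 4954 in WT, 9768 to 10818 in Rb KO and 8011 to 9221 in DKO. Fabp7, a lipid-binding protein of radial glia and progenitors, rose in both mutants (1.63 and 0.56) and, as Hes1 did, fell in DKO against Rb KO (-1.07, adjusted p = 9.03e-04), while Six6 and Hmgb2 did not differ between the mutants past the threshold (0.01 and 0.14). All 6 markers of cycling cells (Mki67, Mcm2 and Mcm5 the brightest) rose in both mutants, with sums of 706 to 889 in WT, 9872 to 13189 in Rb KO and 12399 to 14402 in DKO. None of the 6 was above background on any WT array, so the WT sums hold background readings only.

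Of 8 measured Muller glia markers 5 fell and 1 rose in each mutant, the rise being Sox9. Their sums were 11493 to 13498 in WT, 9278 to 9955 in Rb KO and 9701 to 10574 in DKO. Rlbp1 fell (-0.73 and -0.94), and Dkk3 and Apoe did not pass in either mutant. Progenitor, cycling and Muller glia markers thus differed between the same groups as the called genes, and the part of these cell types in the readings of the 9 genes was not tested.

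Of the other marker lists, all 8 measured rod genes fell in both mutants, with Gnat1, Prph2 and Pde6b the brightest (sums of 38111 to 39557 in WT, 10080 to 18930 in Rb KO and 10413 to 21480 in DKO). Each of these 8 was above background on at least 1 array. Of 11 endothelial genes, 8 were lower than WT in Rb KO and 10 in DKO, of which 4 and 5 were not above background on any array of the groups compared. The brightest of them, Kdr, did not pass (0.17 and 0.09), Cldn5 fell in both mutants, and Cdh5 stood at -0.4 (not passed) in Rb KO and -0.97 in DKO. Of 5 astrocyte genes, 4 were lower in Rb KO, the brightest, Gfap, at -0.5, and in DKO 2 were lower (Aldh1l1 and S100b) and 1 higher (Pax2); 3 of the calls in each were on genes not above background. Of 7 pigment epithelium genes, 6 were lower in each mutant, Ttr, Pmel and Dct among them, 2 of them not above background. Of 8 microglia genes, 6 rose in Rb KO and 5 in DKO, C1qb and Cd68 in both, and 4 and 3 of these were not above background. Csf1r did not pass in either mutant. Of 7 lens genes, 0 rose in Rb KO and 3 in DKO (Cryba1, Cryaa and Crygs) and Mip did not pass, with sums of 695 to 896 in WT, 763 to 1101 in Rb KO and 1280 to 6332 in DKO. The highest of these was DKO replicate 2, and the other DKO arrays summed to 1280 and 1596.

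Over the 9 arrays the genes most like each called member above background on any array (Dll1, Lfng, Rbpj, Hes1 and Hes5) were found by Pearson correlation among 7493 named genes above background on any array. As the arrays fall into 3 groups and many genes moved with the groups, these values describe a shared pattern over groups and carry no test. The pattern of Hes1 was rare: 31 genes exceeded r = 0.9, against 1043 for Rbpj, 823 for Dll1, 795 for Hes5 and 603 for Lfng. The genes nearest to Hes1 were Hkdc1 (r = 0.97), a hexokinase-like gene, and Tmod3 (r = 0.959), an actin-capping tropomodulin. Hkdc1 stood at 0.66 for Rb KO minus WT and at -0.45 for DKO minus Rb KO. Nearest to Hes5 were Ptpru (0.992), a receptor phosphatase, and Trmt2a (0.989), nearest to Dll1 were Lamb2 (0.99) and Gkap1 (0.987), nearest to Lfng were Limk1 (0.985) and Rnf144a (0.982), and nearest to Rbpj, after Rbpsuh-rs3, was Cracd (0.997).

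Within groups the 9 genes tended to be low or high together on the same array. WT replicate 3 and Rb KO replicate 3 were each the lowest array of their group in 7 of the 9 genes, and DKO replicate 1 was the highest of its group in 8 of the 9. Over all 9239 genes above background on any array, these arrays held 59.2% of the lowest readings, 29.7% of the lowest and 36% of the highest of their groups. Hes1 was an exception in Rb KO, where replicate 1 was its lowest array.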

How the data were processed

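Total RNA of retinas was amplified and labelled with the maker's whole-transcript kits, per the labels' protocols, and RNA with an integrity score above the submitters' limit was used. The deposited values are log2 intensities per probe set, and the submitters' processing notes name RMA, which corrects background, equalises arrays by quantiles and sums probes. Software version and annotation build are not given in the sources used here. Of 52917 transcript clusters 24646 had 1 gene symbol in the platform annotation, 1795 several and 26476 none. Symbols were updated through Entrez IDs and a RefSeq table (GRCm38.p6), and a gene was represented by its brightest probe set. Listed genes without a probe set here were not analysed here.

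Group means over all 9 arrays were compared with limma 3.58.1 (R 4.3.3; 6 residual and 4.69 prior degrees of freedom, no filter, two-sided), with Benjamini-Hochberg adjustment over all 24257 genes and calls at an adjusted p under 0.05. The fit was tested on simulated data. The number of arrays, 3 a group, limits the precision. The series calls them biological replicates. The 9 genes and the lists were chosen with earlier results of these data known. Named beyond the 9 were, per comparison, up to 4 rising and 4 falling called pathway genes with the largest change among those above background, the 3 brightest genes of each marker list and the 2 genes most like each called member. Other names (Olig2, Sox9, S100b, Crygs, Notch4, Heyl, Hes2, Neurl1a, Neurl1b and those of label checks) were chosen after their values were seen. Alternatives covered normalization, centring, probe sets, a filter on dim genes, variance moderation, the groups fitted, a replicate block, array quality and leaving out each array.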

Additional observations from a re-analysis of the deposited data

How the results depend on the processing

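Among the 9 genes, calls against WT kept direction and side of the threshold under every alternative run except for Lfng and Mfng, whose values stand above. The filter on dim probe sets left Notch3, Dll3 and Mfng untested. With 1 array left out, 5 to 7 genes were higher in Rb KO and 5 to 6 in DKO. Of genes lower in DKO than Rb KO there was 1 (Hes1), 0 with arrays centred on the median and 0 with a replicate block, and 0 to 1 with an array left out. The labels name no batch or pairing of arrays. Deviations of same-numbered arrays from their group means correlated at r = -0.3 to 0.205. Those of differently numbered arrays reached r = 0.463 (Rb KO 2 with DKO 1) and -0.593 (Rb KO 3 with DKO 1). Whether arrays were handled in sets was not tested. Uncalled values changed sign: Notch3 in Rb KO (0.00 with median centring, -0.05 to 0.03 with an array left out) and, between the mutants with an array left out, Dll1 (-0.14 to 0.15), Dll3 (-0.12 to 0.04), Jag2 (-0.10 to 0.00) and Mfng (-0.07 to 0.10). Of the 61 pathway genes, 13 to 25 were higher in Rb KO with an array left out. The 2 lower in Rb KO became 1 with quantile normalization, with only the 2 groups compared and with the replicate block, 0 with control separation as a covariate, and 1 to 2 with an array left out. The 7 lower in DKO became 4 with that covariate. Between the mutants the 2 higher became 1 with median centring, only the 2 groups compared, the replicate block or the covariate, and 0 to 4 with an array left out. The 2 lower became 1 with centring or the replicate block, 4 with the filter on dim probe sets, which tested fewer genes, and 1 to 2 with an array left out. Elsewhere the cause was not tested. Signal near background limits Notch3, Dll3 and Mfng, and the folds of Dll1, Lfng and Hes5, which were above it on only some arrays.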
